A study of Vitis vinifera with 26 samples.

Results

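Stilbene synthases condense coumaroyl-CoA with malonyl-CoA to resveratrol, the parent compound of the grapevine stilbenes. They draw on the same substrates as chalcone synthase, the entry enzyme of flavonoid synthesis, and in grapevine their products are known to accumulate in the berry skin and after infection, wounding or ultraviolet light. Most of the family sits in a tandem array of near-identical copies on chromosome 16, and a smaller array lies on chromosome 10. The chromosome 16 array was taken here as every assembled locus that carried at least 1 reference identifier from VIT_216s0100g00750 to VIT_216s0100g01200. The identifiers are those recalled for the array from the grapevine literature, and the files hold no gene names against which each copy could be checked. Of 33229 assembled loci, 42 were members. Identifiers are shortened below to their last part, so that g01130 stands for VIT_216s0100g01130.

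The berries came from 8-year-old field plants of the *Vitis vinifera* cultivar 'Pinot Noir'. Clusters were enclosed in a bag with 5 ppm of 1-methylcyclopropene (1-MCP), a gas that occupies ethylene receptors and blocks ethylene perception, for 24 h, or received a mock treatment, and were sampled 24 h later. Control and 1-MCP clusters were taken 6, 7 and 8 weeks after anthesis (WAA), from 3 plants in the first of these weeks and 5 in each of the others, and the design text states that both clusters of a pair came from 1 plant. This gave 26 libraries in 6 groups, in which the controls are identified by titles and source names, since the description field calls all of the clusters treated. At 7 WAA the replicates are numbered 1, 2, 3, 4 and 12, and values of that week are given below in this order. Values of 6 and 8 WAA follow replicates 1 to 3 and 1 to 5.

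The deposited values were multiples of a fixed step in each library, and a unit is that step. All loci together gave 20368 to 23485 units per library. A locus counts as detected from 0.5 units, which 13912 to 15261 loci reached, and 62.7% to 68.9% of the detected loci stood at 1 unit. Units therefore record little beyond whether a locus was listed, and the number of reads behind them is unknown. Of the 5 loci matched by 4 identifiers recalled for common reference genes, 3 stood at 1 unit in all 26 libraries, the commonest value of any detected locus. Units are not per kilobase, so units of different copies are not compared as expression levels. All 5 loci of the berry skin anthocyanin list, chosen as markers of coloured skin, were listed at 0 in all 26 libraries. Fewer cells of a type and less RNA per cell cannot be told apart in these bulk samples.

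The array covered 473.0 kb of chromosome 16, from 16238950 to 16711905 in the coordinates of the files, whose genome build is not given in the sources used here. Its 42 loci carried 36 reference identifiers and 52 assembled isoforms. Of these loci, 35 lay on the strand of their reference gene and 7 were assembled antisense to it. XLOC_011936 joined g00850 with g00860, and XLOC_011947 joined g01000 with g01020. How reads shared by near-identical copies were assigned is not stated, so the value of any single copy is uncertain.

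Only part of the array was listed in any library. Of 1092 member values, 447 (40.9%) were detected, 340 of these stood at 1 unit, and 11 exceeded 2.5 units. Over the 26 libraries, 33 members were detected in at least 3 libraries, 1 was detected in 2 libraries, 1 was detected once, and 7 were never detected. The undetected members were assembled at 108 to 1549 bases. The 7 sense members under 700 bases were listed at 0 throughout, except g00950, which was listed at 1 unit in treated replicate 2 of 6 WAA. The 2 antisense members under 700 bases, XLOC_011333 and XLOC_011336, were detected in 14 and 11 libraries, which is 48.1% of their values against 9.42% for all loci longer than 300 and up to 700 bases.

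**Figure D1:**
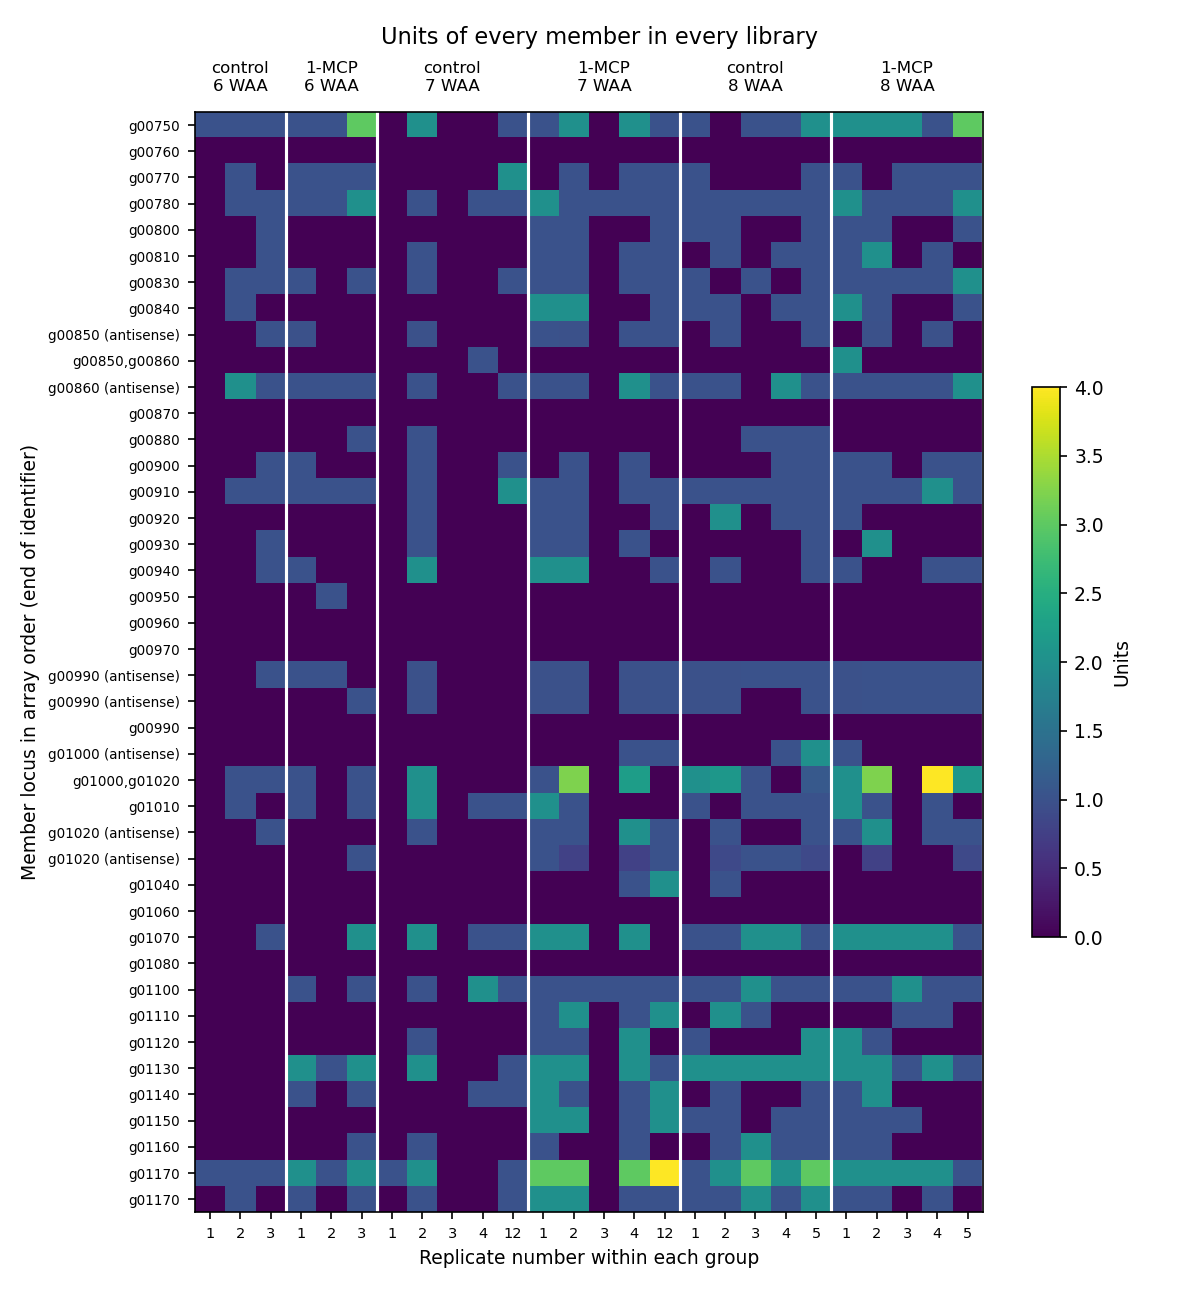
Units of each of the 42 member loci (vertical axis, in array order, labelled by the end of the identifier) in each of the 26 libraries (horizontal axis, replicate number within each group); colour runs from 0 to 4 units. Columns with few listed members, such as control replicates 1 and 3 and treated replicate 3 of 7 WAA, stand beside columns in which most of the array is listed.

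Libraries differed widely in how many copies they listed at once. At 6 WAA the array total was 2, 12 and 16 units in control replicates 1, 2 and 3, against 19, 9 and 24 units after 1-MCP in those plants. At 7 WAA the controls held 1, 31, 0, 7 and 16 units and the 1-MCP clusters 39, 41, 2, 36 and 32 units. At 8 WAA the controls held 21, 29, 23, 24 and 38 units and the 1-MCP clusters 38, 36, 18, 28 and 25 units. Totals near 0 occurred in both arms, in control replicate 1 of 6 WAA, in control replicates 1 and 3 of 7 WAA and in treated replicate 3 of 7 WAA, and the control and treated ranges overlapped at each week. At 8 WAA no library fell below 18 units.

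**Figure D2:**
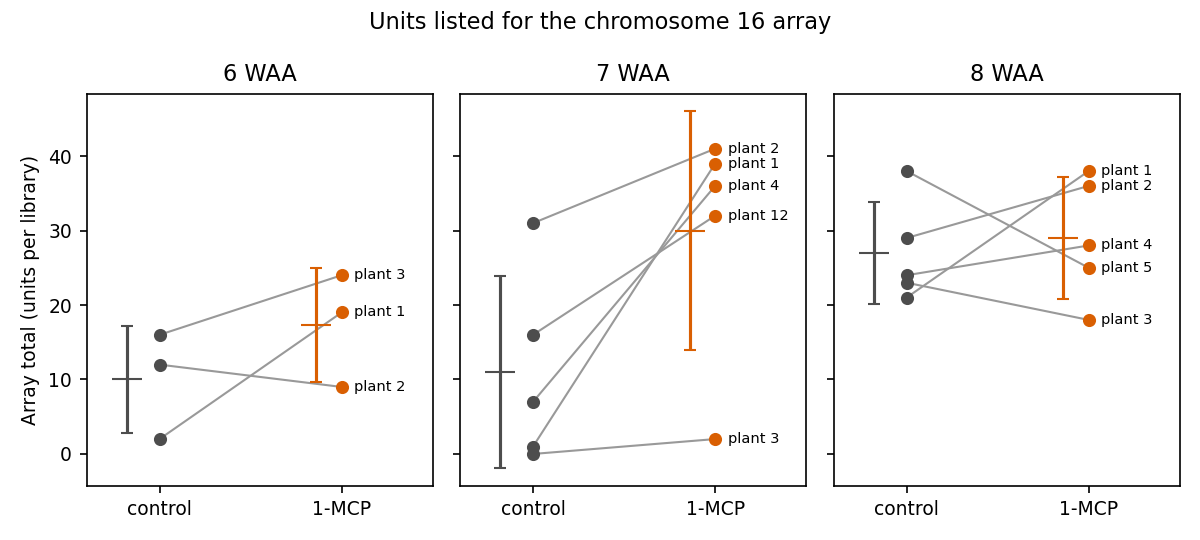
Array total in units (vertical axis) of control (grey) and 1-MCP-treated (orange) clusters at 6, 7 and 8 WAA; points are libraries, lines join the clusters of 1 plant, and the bars beside them are mean ± SD. All 5 lines go up at 7 WAA, while at 6 and 8 WAA they run in both directions.

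The array was higher after 1-MCP at 7 WAA in each of the 5 plants. The control mean was 11 ± 12.9 units and the treated mean 30 ± 16 units (SD, n = 5), and the difference within plants was 38, 10, 2, 29 and 16 units, with a mean of 19 ± 14.5. Treated clusters listed 28, 29, 2, 27 and 25 members against 1, 24, 0, 6 and 14 in the controls. At 6 WAA the difference was 7.33 ± 10 units (SD, n = 3), with 2 of 3 plants higher after treatment. At 8 WAA it was 2 ± 11.5 units (SD, n = 5), with 3 of 5 plants higher. Without 1 plant at a time, the mean difference ranged from 2.5 to 12.5 units at 6 WAA, from 14.3 to 23.3 at 7 WAA and from -1.75 to 5.75 at 8 WAA. Neither the total nor these differences are given a p, since the members were chosen with earlier results of the same libraries known.

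Total units and step of the libraries stood beside this contrast. Treated clusters of 7 WAA held 22261 to 23485 units over all loci and the controls 21368 to 22803. The step was 1.02702 in all 5 treated libraries of 7 WAA and in control replicates 2 and 12, which had the highest array totals among those controls. Control replicates 1, 3 and 4, with array totals of 1, 0 and 7 units, had steps of 1.05055, 1.03637 and 1.05477. Treated replicate 3, at 2 units, shared the lower step, and control replicate 1 of 8 WAA, at 21 units, shared the highest one. The part of the step in the difference was not tested.

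At 7 WAA the mean of 30 of the 42 members (71.4%) was higher after 1-MCP by more than 0.05 units, and that of 3 was lower, against 22.8% and 19.6% of all loci. The median difference over the 42 members was 0.50 units, and that over all loci was 0. At 6 WAA, 17 members were higher and 5 lower (40.5% and 11.9%, against 18.6% and 17.8% of all loci). At 8 WAA, 16 were higher and 11 lower (38.1% and 26.2%, against 21.4% and 17.9% of all loci). These counts describe the members, and copies that share reads are not independent of each other. All loci here and below include 11402 listed at 0 in every library, a larger part than of the members, which lowers both of their shares.

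No member passed the threshold for 1-MCP. In limma on log2(units + 1) with a block for each plant, 33 of the 42 members were listed in enough libraries to be tested, and 0 had an adjusted p under 0.05 at 6, 7 or 8 WAA. Over all 18754 loci tested, 0.0427% passed at 6 WAA, 0.00533% at 7 WAA and 0% at 8 WAA. The lowest adjusted p of a member was 0.416 at 6 WAA, 0.632 at 7 WAA and 0.950 at 8 WAA. Before adjustment, a p under 0.05 was reached at 7 WAA by 10 members, all higher after treatment (over all loci, 3.38% were higher and 1.97% lower at that level). The same level was reached by 2 members at 6 WAA, both higher (3.43% of all loci), and at 8 WAA by 1 higher (2.79%) and 1 lower (1.55%). The lower one, XLOC_011938, was tested only through the controls of 8 WAA, where it is high. None of these members passed after adjustment, and no direction is claimed for single copies.

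Copies were picked for description in part by their mean units, which is no ranking of expression. XLOC_011958 at g01170, in the last stretch of the array, had a mean of 1.73 units over 26 libraries. It was listed at 1 unit in all 3 controls of 6 WAA and at 2, 1 and 2 units after treatment. At 7 WAA it stood at 1, 2, 0, 0 and 1 units in controls and at 3, 3, 0, 3 and 4 units after treatment. The 1-MCP cluster was higher in 4 of these 5 plants and equal in 1, with both clusters of plant 3 at 0. The log2 change at 7 WAA was 0.95 ± 0.28 (SE, limma, adjusted p = 0.729), and the exact two-sided sign-flip test over plants gave p = 0.125 (n = 5, adjusted p = 0.938 over 45 tests), a test that cannot reach 0.05 with 5 plants. At 8 WAA the order did not hold, with 1, 2, 3, 2 and 3 units in controls and 2, 2, 2, 2 and 1 after treatment. The other locus at g01170, XLOC_011959, shares its deposited coordinates, had a mean of 0.808 units and reached at most 2 units.

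The locus XLOC_011954 at g01130 (16618991 to 16624707) had a mean of 1.27 units. It was listed at 0 in all 3 controls of 6 WAA and at 2, 1 and 2 units in the 1-MCP clusters. It had the smallest p of any member at that week, when 3.43% of all tested loci were higher at an unadjusted p under 0.05 in limma. At 7 WAA it stood at 0, 2, 0, 0 and 1 units in controls and at 2, 2, 0, 2 and 1 after treatment. At 8 WAA all 5 controls stood at 2 units, and the 1-MCP clusters at 2, 2, 1, 2 and 1. Controls were thus all listed at 0 at 6 WAA and all at 2 units at 8 WAA, while 1-MCP clusters showed no such step. The log2 change for 1-MCP at 6 WAA was 1.39 ± 0.34 (SE, limma, adjusted p = 0.416), and the exact sign-flip test gave p = 0.25, the smallest that 3 plants allow (adjusted p = 0.938). Nearly all of its units belonged to an isoform of 1536 bases that differs from the reference model. In treated replicate 5 of 8 WAA its 1 unit was listed under the reference isoform of 1364 bases.

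The locus XLOC_011956 at g01150 (16643899 to 16645890) had the smallest p for 1-MCP at 7 WAA. It was listed at 0 in all 8 controls of 6 and 7 WAA and in all 3 treated clusters of 6 WAA. The 1-MCP clusters of 7 WAA stood at 2, 2, 0, 1 and 2 units. At 8 WAA the controls stood at 1, 1, 0, 1 and 1 units and the 1-MCP clusters at 1, 1, 1, 0 and 0. In these libraries controls thus listed it only at 8 WAA, and 1-MCP clusters at 7 and 8 WAA. It did not pass between arms or weeks with all libraries kept, so no shift in timing is claimed. The log2 change at 7 WAA was 1.15 ± 0.30 (SE, limma, adjusted p = 0.632, higher in 4 of 5 plants), with an exact sign-flip p = 0.125 (n = 5, adjusted p = 0.938). Between 8 and 7 WAA the 1-MCP effect differed by -1.35 ± 0.42 (SE, limma, adjusted p = 0.973).

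XLOC_011952 at g01110 was likewise missing from the earlier controls. The 6 libraries of 6 WAA and the 5 controls of 7 WAA all had it at 0. At 7 WAA the 1-MCP clusters stood at 1, 2, 0, 1 and 2 units. The controls of 8 WAA stood at 0, 2, 1, 0 and 0 units and the 1-MCP clusters at 0, 0, 1, 1 and 0, overlapping. Between 7 and 8 WAA in 1-MCP clusters it had the smallest p of any member, with a log2 change of -0.63 ± 0.33 (SE, limma, adjusted p = 0.743). It was listed in enough treated clusters to be tested only because of those of 7 WAA, where it is high. Its deposited interval runs from 16587220 to 16614892, and its longest isoform measured 15767 bases.

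Copies nearer the start of the array overlapped between the arms at each week. XLOC_011324 at g00750, the first of the array, was listed at 1 unit in all 3 controls of 6 WAA and at 1, 1 and 3 units after treatment. At 7 WAA it stood at 0, 2, 0, 0 and 1 units in controls and at 1, 2, 0, 2 and 1 after treatment. At 8 WAA the controls stood at 1, 0, 1, 1 and 2 units and the 1-MCP clusters at 2, 2, 2, 1 and 3. The 1-MCP clusters of 8 WAA were higher in 4 of 5 plants, by 1.00 ± 0.71 units (SD, n = 5, exact sign-flip p = 0.125, adjusted p = 0.938). XLOC_011327 at g00780 was detected in 23 libraries and never exceeded 2 units, and it was the only copy besides g01100 listed in treated replicate 3 of 7 WAA. XLOC_011331 at g00910 was detected in 21 libraries, at 1 unit in all 5 controls of 8 WAA and at 1, 1, 1, 2 and 1 units in the 1-MCP clusters of that week. XLOC_011933 at g00800 was listed at 0 in all 5 controls of 7 WAA and at 1, 1, 0, 0 and 1 units after treatment, and at 6 WAA at 0, 0 and 1 units in controls and at 0 after treatment. The change of its 1-MCP effect from 6 to 7 WAA was 0.93 ± 0.31 on the log2 scale (SE, limma, adjusted p = 0.788).

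Further named copies overlapped between arms. XLOC_011950 at g01070 was listed at 0, 2, 0, 1 and 1 units in controls and at 2, 2, 0, 2 and 0 after treatment at 7 WAA, and at 8 WAA at 1, 1, 2, 2 and 1 against 2, 2, 2, 2 and 1. XLOC_011951 at g01100 was absent from the 3 controls of 6 WAA, stood at 1, 0 and 1 units after treatment, and stood at 1 unit in all 5 treated clusters of 7 WAA against 0, 1, 0, 2 and 1 in controls. XLOC_011938 at g00880 went the other way at 8 WAA, with 0, 0, 1, 1 and 1 units in controls and 0 in all 5 treated clusters, a log2 change of -0.60 ± 0.22 (SE, limma, adjusted p = 0.950). It was lower after treatment in 3 of 5 plants (exact sign-flip p = 0.25, n = 5, adjusted p = 0.938). No other copy had a smaller p at that week. XLOC_011938 was listed in enough libraries to be tested only because of the controls of 8 WAA, where it is high. With 3 or 5 plants none of the 45 exact tests, on 15 named members at 3 weeks, could have reached 0.05, and several members were named for their small p in these same libraries, so these exact p-values only describe the plants.

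**Figure D3:**
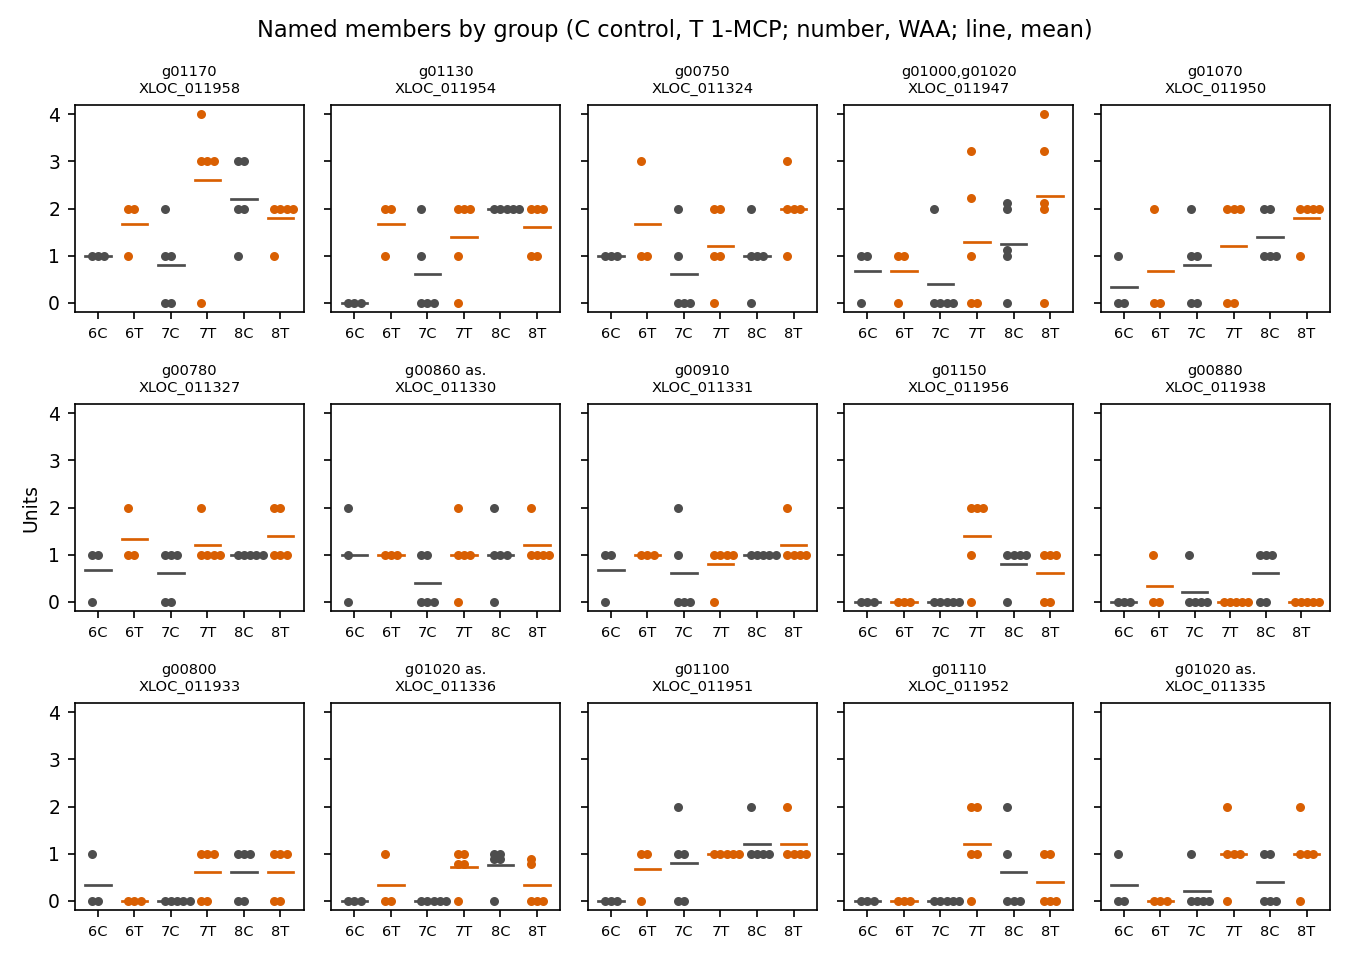
Units (vertical axis) of the 15 named members by group (horizontal axis: 6, 7 and 8 WAA; C control in grey, T 1-MCP in orange); points are libraries, horizontal lines are group means, and "as." marks antisense loci. At g01150 and g01110 the controls of 7 WAA all stand at 0 while 4 of 5 treated clusters stand at 1 or 2 units, and at g01130 the controls stand at 0 at 6 WAA and at 2 units at 8 WAA.

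Differences between weeks in the 1-MCP effect did not pass either. Of the 33 tested members 0 passed in limma between 7 and 6 WAA, between 8 and 7 WAA or between 8 and 6 WAA, where 0.0373%, 0% and 0.0373% of all loci passed. The lowest adjusted p of a member was 0.788, 0.973 and 0.805. Before adjustment, 4 members had a larger effect at 7 than at 6 WAA (2.68% of all loci) and 0 a smaller one (2.18%). Between 8 and 7 WAA, 8 had a smaller effect at 8 WAA (2.25%) and 0 a larger one (2.35%). Between 8 and 6 WAA, 2 had a smaller effect at 8 WAA (2.13%) and 0 a larger one (2.21%). Of these 2, XLOC_011938 at g00880 was tested only through the controls of 8 WAA, where it is high. The filter thus favoured its direction. The member with the smallest p between 8 and 6 WAA was XLOC_011954 at g01130, with a log2 difference of -1.62 ± 0.43 (SE, limma, adjusted p = 0.805). An array total that was higher after treatment at 7 WAA and near equal at 8 WAA is thus a description of these plants, and no single copy passed for a change of effect.

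In control clusters the array was listed at similar totals at 6 and 7 WAA and at a higher total at 8 WAA. The means were 10 ± 7.21 units (SD, n = 3), 11 ± 12.9 (n = 5) and 27 ± 6.82 (n = 5). Between 7 and 8 WAA, 27 of the 42 members had a higher mean and 1 a lower one, 64.3% and 2.38%, against 18.8% and 23.9% of all loci. Between 6 and 8 WAA, 29 members were higher and 2 lower (69.0% and 4.76%, against 22.8% and 24.8% of all loci). Between 6 and 7 WAA, 15 were higher and 14 lower (35.7% and 33.3%, against 25.1% and 23.0% of all loci). Among loci tested in limma, 12 of 30 members were higher and 14 lower by more than 0.05 on the log2 scale, against 37.7% and 36.9% of all tested loci. The total of control replicate 2 at 7 WAA, 31 units, lay within the range of the 8 WAA controls, while the other 4 controls of 7 WAA lay below it. Leaving out 1 library at a time, the 8 WAA controls exceeded those of 7 WAA by 13.3 to 21 units and those of 6 WAA by 13 to 20 units, and the difference between 7 and 6 WAA ran from -4 to 4 units.

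In limma over the 13 controls, 30 members were tested and 0 passed between 6 and 7, 7 and 8 or 6 and 8 WAA, while 0.168%, 0.568% and 1.17% of the 17264 loci tested did. Before adjustment, 9 members were higher at 8 than at 7 WAA (2.08% of all loci) and 0 lower (4.89%), and 8 were higher at 8 than at 6 WAA (2.68%) and 0 lower (5.2%). Between 6 and 7 WAA, 0 members were higher (2.75%) and 0 lower (2.66%) at an unadjusted p under 0.05. The lowest adjusted p for 8 against 6 WAA was 0.0549, at g01130 (XLOC_011954), with a log2 change of 1.58 ± 0.33 (SE, limma). This copy passed with values left on the deposited scale (adjusted p = 0.0469), with libraries scaled to the median total (0.0376) and with all 26 libraries in 1 fit (0.0262), and its adjusted p lay between 0.108 and 0.172 when 1 library was left out. For 8 against 7 WAA the lowest was 0.0830, at g01150 (XLOC_011956, 0.80 ± 0.17) and at the antisense locus XLOC_011336 (0.77 ± 0.17). Both of these were listed at 0 in every control of 6 and 7 WAA. Of the 9 members higher at 8 than at 7 WAA, only XLOC_011958 and XLOC_011959 were listed in enough controls without those of 8 WAA. Of the 8 higher at 8 than at 6 WAA, only XLOC_011950, XLOC_011951 and XLOC_011959 were. All others in these counts, g01130, g01150 and XLOC_011336 among them, were tested only through the controls of 8 WAA, where they are high. Their direction was thus fixed or favoured by the filter, so the counts of higher members do not speak for a rise. The controls of 7 WAA enter both the comparison of 8 against 7 WAA and the 1-MCP comparison of 7 WAA, so the 2 sets of values are not independent.

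Without control replicate 2 of 7 WAA, 2 members passed for 8 against 7 WAA, the antisense locus XLOC_011332 at g00990 (adjusted p = 0.0362) and g01130 (XLOC_011954, adjusted p = 0.00883). Without control replicate 3 of 8 WAA, 2 others passed, XLOC_011935 at g00840 (adjusted p = 0.0478) and XLOC_011956 at g01150, whose remaining values had a residual SD of 0 and whose p measures no spread. Without control replicate 1 of 8 WAA, XLOC_011336 passed with a residual SD of 0.0278. These 2 members also passed for 8 against 6 WAA without the same libraries. Every member named here was listed in enough controls to be tested only through those of 8 WAA. A rise to 8 WAA was thus fixed or favoured by the filter.

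Treated clusters held more of the array at 7 than at 6 WAA and a like amount at 8 WAA. The means were 17.3 ± 7.64 units (SD, n = 3), 30 ± 16 (n = 5) and 29 ± 8.19 (n = 5). From 6 to 7 WAA 25 members had a higher mean and 8 a lower one (59.5% and 19.0%, against 25.4% and 21.1% of all loci). From 7 to 8 WAA 15 were higher and 14 lower (35.7% and 33.3%, against 18.6% and 24.0% of all loci), and from 6 to 8 WAA 27 were higher and 6 lower (64.3% and 14.3%, against 22.7% and 22.7%). Replicate 3 of 7 WAA, at 2 units, lay below every other treated library, and without it the means of 7 and 6 WAA differed by 19.7 units and those of 8 and 7 WAA by -8.00 units. In limma over the 13 treated libraries, 31 members were tested and 0 passed in these 3 comparisons, against 0.145%, 0.324% and 0.451% of 17281 loci. The lowest adjusted p was 0.702, 0.743 and 0.484, and before adjustment 3, 0 and 2 members were higher (2.96%, 2.75% and 3.3% of all loci) and 0, 0 and 0 lower (2.45%, 5.16% and 4.91%). Among the 3 higher at 7 than at 6 WAA, XLOC_011952 was tested only through the treated clusters of 7 WAA, where it is high. The filter thus favoured its rise.

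Along the array, the last stretch had the widest difference between arms at 6 and 7 WAA. The 12 loci from g01050 to g01200 held 1.67 ± 0.58 units in controls and 6.33 ± 4.04 after treatment at 6 WAA (SD, n = 3). At 7 WAA they held 4.20 ± 4.02 and 12.4 ± 6.54, and at 8 WAA 11.6 ± 2.61 and 9.60 ± 3.71 (SD, n = 5). The 8 loci from g00750 to g00849 held 2.2 ± 2.59 units in controls and 6.20 ± 3.11 after treatment at 7 WAA, and 5.00 ± 2 and 7.60 ± 2.51 at 8 WAA. The 10 loci of the second stretch held 2.80 ± 3.83 and 5.20 ± 3.11 units at 7 WAA, and the 12 of the third 1.80 ± 2.95 and 6.20 ± 3.56. All 4 stretches had the higher mean after treatment at 7 WAA, with SDs that overlapped in each.

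**Figure D4:**
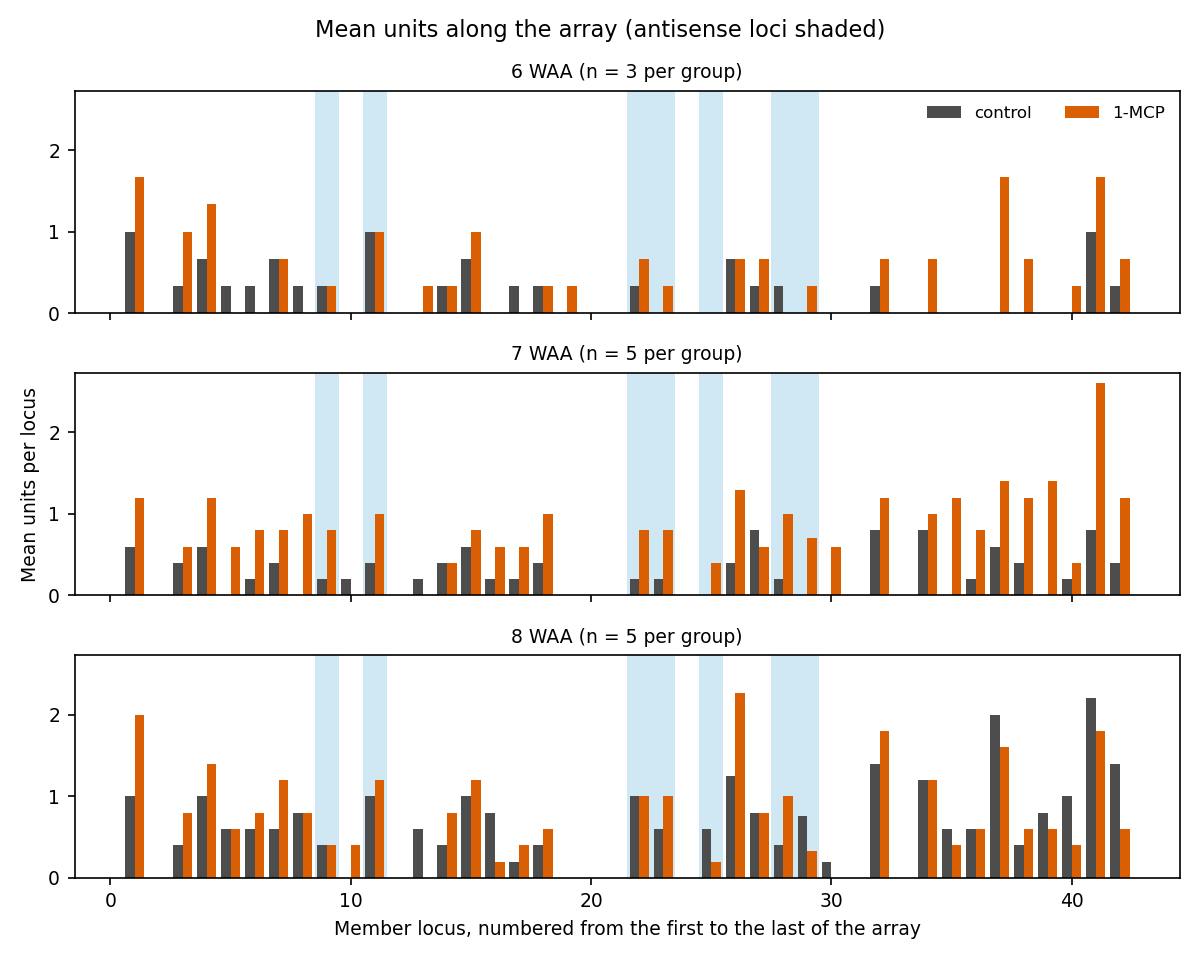
Mean units per locus (vertical axis) in control (grey) and 1-MCP-treated (orange) clusters for the 42 members numbered in array order (horizontal axis), at 6, 7 and 8 WAA; antisense loci are shaded. At 7 WAA 30 of the 42 orange bars exceed the grey ones by more than 0.05 units, and the one at g01170 stands at 2.60 units.

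Detection of long sense members differed between groups. Of the values of the 9 sense members longer than 1600 and up to 1900 bases, 44.4% were detected in controls and 66.7% in 1-MCP clusters at 6 WAA, 42.2% and 80.0% at 7 WAA, and 86.7% and 82.2% at 8 WAA. The 2731 loci of that length were detected at 54.1% to 57.7% in the same 6 groups. The long members thus ranged from below to above loci of their length. A share over 9 similar copies moves more than one over 2731 loci, so the widths of these ranges cannot be compared.

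Antisense loci made up 7 of the 42 members (16.7%) against 4.19% of all loci, and they held 17.1% of the array's units against 2.37% over all loci. They lay at 3 places. At g00850 and g00860, XLOC_011329 and XLOC_011330 held 35 units over the 26 libraries, and the sense locus XLOC_011936 held 3.01 units. At g00990, XLOC_011332 and XLOC_011333 held 32.0 units and the sense locus XLOC_011946 held 0.040. At g01000 and g01020, XLOC_011334, XLOC_011335 and XLOC_011336 held 30.0 units and the sense locus XLOC_011947 also held 30.0. At the first 2 places nearly all units thus stood on the strand opposite to the reference gene. The labels do not say whether the libraries kept strand, and without strand, reads of a gene and of its antisense partner cannot be told apart.

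All 7 antisense loci had a higher mean after 1-MCP at 7 WAA (65.7% of sense members, 22.8% of all loci). In controls all 7 were also higher at 8 than at 7 WAA (57.1% of sense members, 18.8% of all loci). The controls of 7 WAA enter both comparisons, and loci at 1 place are not independent of each other. The total of the antisense loci was 1.20 ± 2.17 units in controls and 5.51 ± 3.30 after treatment at 7 WAA (SD, n = 5), and 4.75 ± 2.34 and 5.13 ± 1.40 at 8 WAA. XLOC_011332 at g00990 was listed at 1 unit in all 10 libraries of 8 WAA, in 4 of 5 treated clusters and in 1 of 5 controls of 7 WAA. XLOC_011336 at g01020, of 335 bases, was listed at 0 in all 8 controls of 6 and 7 WAA and at 1, 0.774, 0, 0.774 and 1 units in the 1-MCP clusters of 7 WAA. In 6 libraries its value was not whole, and in all 6 its sum with the sense locus XLOC_011947 was whole, so its units were divided between the strands. Its 1-MCP effect at 8 WAA was lower than at 7 WAA by a log2 difference of -1.15 ± 0.31 (SE, limma, adjusted p = 0.973). XLOC_011330 at g00860 was detected in 20 libraries, and XLOC_011335 at g01020 was listed at 0 in all 3 treated clusters of 6 WAA and at 1, 2, 0, 1 and 1 units in those of 8 WAA (log2 change 0.92 ± 0.36, SE, limma, adjusted p = 0.484). The sense locus XLOC_011947 stood at 0, 2, 0, 0 and 0 units in controls and at 1, 3.22, 0, 2.23 and 0 after treatment at 7 WAA, and it reached 4 units in treated replicate 4 of 8 WAA.

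The neighbours of the array did not share its range. The 28 loci with identifiers from g00550 up to the array and from its end to g01400 held 17 to 33 units per library, with a median of 24, while the array ran from 0 to 41. Their treated-minus-control difference was -1.33 ± 1.53 units at 6 WAA (SD, n = 3), 0.40 ± 5.22 at 7 WAA and 1.40 ± 3.29 at 8 WAA (SD, n = 5). In limma, 0 of the 19 tested neighbours passed for 1-MCP at any week, with 0 at an unadjusted p under 0.05 at 7 WAA, 1 lower at 6 WAA and 1 higher at 8 WAA. The test of the array against its neighbours was not run.

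The smaller array on chromosome 10 was listed in some of the libraries. Its 11 loci, from 9 recalled identifiers, held 0, 3, 0, 0 and 0 units in controls and 3, 3, 0, 3 and 5 units after treatment at 7 WAA. That is a difference of 2.2 ± 2.17 units (SD, n = 5), with 3 of 5 plants higher and 2 equal. At 8 WAA the controls held 0, 3, 0, 0 and 1 units and the 1-MCP clusters 3, 1, 0, 1 and 1. None of its 6 tested loci passed in limma for 1-MCP, and 1 had an unadjusted p under 0.05, lower at 6 WAA. Control replicate 2 and treated replicate 3 of 7 WAA, the control with the highest and the treated cluster with the lowest total on chromosome 16, were also the highest and the lowest of their groups here. XLOC_002658, antisense to VIT_210s0042g00870, averaged 0.336 units, and the others less.

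Upstream of stilbene synthase, phenylalanine ammonia-lyase (PAL) opens the phenylpropanoid pathway, and cinnamate 4-hydroxylase (C4H) and 4-coumarate:CoA ligase (4CL) lead to coumaroyl-CoA. The 5 PAL loci on chromosome 16 held 0, 3, 0, 0 and 0 units in controls and 4, 2, 0, 4 and 5 units after treatment at 7 WAA. The difference was 2.40 ± 2.70 units (SD, n = 5), higher in 3 of 5 plants. The other 4 PAL loci held 3 or 4 units in every library, and 3 of them stood at 1 unit in all 26 libraries, VIT_213s0019g04460 among them. Of 5 tested PAL loci 0 passed in limma for 1-MCP, and none had an unadjusted p under 0.05.

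The 7 C4H and 4CL loci held 5 to 9 units per library, and VIT_216s0039g02040, the one named by its mean units, averaged 1.27. In the whole pathway set, 1 locus passed in 1 of the 12 comparisons. VIT_211s0065g00350 (XLOC_003889), of the C4H and 4CL list, rose in controls from 0, 0, 0.711, 0 and 1 units at 7 WAA to 1.63, 1.80, 1.49, 1.78 and 1.80 units at 8 WAA (log2 change 1.08 ± 0.19, SE, limma, adjusted p = 0.0383). It did not pass when control 1, 2 or 4 from 7 WAA, or any single one from 8 WAA, was left out (limma, adjusted p from 0.0759 to 0.107), with a pseudocount of 0.1 or 0.5 (0.130 and 0.0725), with whole units (0.0841) and with replicate numbers as a block (0.119). Its 1-MCP clusters stood at 1 unit in all 5 plants of 7 WAA. At that week its 1-MCP effect was 0.65 ± 0.19 (SE, limma, adjusted p = 0.729).

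The regulators MYB14 and MYB15 are R2R3-MYB factors known to activate stilbene synthase promoters in grapevine. The list, with the related MYB13, matched 2 loci, which held 1 to 4 units together, and VIT_205s0049g01010 with VIT_205s0049g01020 (XLOC_022285) averaged 1.54 units. Their treated-minus-control difference was 0.40 ± 0.89 units at 7 WAA (SD, n = 5). Chalcone synthase, matched by 2 of 3 recalled identifiers, held 3 or 4 units in every library. The sense locus of VIT_214s0068g00920 (XLOC_008174) stood at 2 units in all 26 libraries, and the antisense locus of the same identifier (XLOC_009168) at 1 unit in 4 libraries and at 0 in the others. For 1-MCP at 7 WAA, 0 loci of the MYB and chalcone synthase lists had an unadjusted p under 0.05 in limma. Membership of these lists was recalled from the grapevine literature and could not be checked in the files.

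**Figure D5:**
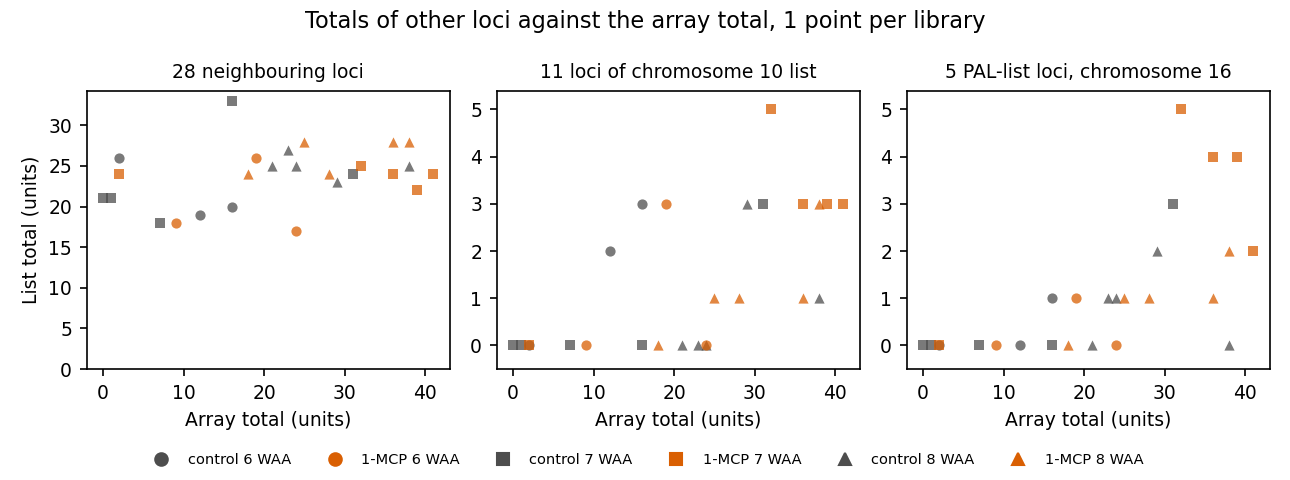
Totals in units (vertical axes) of the 28 neighbouring loci, the 11 loci of the chromosome 10 list and the 5 PAL loci of chromosome 16 against the array total in units (horizontal axis); each point is 1 library, grey for control and orange for 1-MCP, with a shape for each week. The neighbours stay between 17 and 33 units over the whole range of the array, and the PAL loci reach 4 or 5 units only in 1-MCP clusters of 7 WAA.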

How the data were processed

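Berry RNA was sequenced on an Illumina HiSeq instrument, per the design text. The submitters' processing notes list Bowtie2 2.2.3. The authors deposited a signal for each of 90542 assembled isoforms per library, and a table of isoform lengths in bases, identifiers and coordinates. No source used here gives the program behind the signal, the genome build, the annotation or the strandedness. Signals are not read counts and are not per kilobase, so no count test was run. Starts are 0-based in the files and are printed 1-based.

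Isoform signals were summed per locus and divided by the library's step, the commonest value above 0.5. Between 97.7% and 98.5% of locus sums lay within 0.01 of whole units. Loci detected at 0.5 units or more in at least 3 libraries of a fit were tested with limma 3.58.1 (R 4.3.3) on log2(units + 1), a scale that shrinks the changes of low loci. Benjamini-Hochberg adjustment ran over every tested locus, and an adjusted p under 0.05 passed. One fit of the 26 libraries, blocked by plant (13 blocks), gave the 1-MCP effects, and development was fitted in the 13 libraries of each arm. The pairing comes from the design text; same-numbered clusters of a week deviated from their group means with correlations of -0.090 to 0.092 (median 0.019, n = 13 pairs), and other pairs with -0.105 to 0.107. Whether 1 plant served several weeks is not stated.

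Named members are the 8 with the highest mean and the one with the smallest p in each comparison, 15 in all. The members and lists were chosen with earlier results of these data known. Reference identifiers matched 0 of the RefSeq genes at hand, so no coordinates or names were taken from it. The fits were run on values resampled per locus, with units added to some loci. That run required only that larger additions were recovered more often. Resampling did not keep the pairing by plant or the shared changes of copies.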

Additional observations from a re-analysis of the deposited data

Results flagged for a closer look

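In 88 sets of 5 library values, 20 values lay far from the rest of their group; chance alone marks about 1 in 20 such sets, and most single-member sets hold only 0, 1 or 2 units, so that 1 differing library is enough. Of these 20 values, 15 belong to single members.

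In treated replicate 3 of 7 WAA the array total was 2 units and 2 members were detected, far below the other 1-MCP clusters of that week. In the same library g01170 (XLOC_011958), g00910 (XLOC_011331) and the antisense locus XLOC_011336 were listed at 0. In control replicate 2 of 7 WAA the antisense members held 4.99 units, the chromosome 10 list 3 units and the PAL loci of chromosome 16 also 3 units, above the other controls. There XLOC_011947 stood at 2 units, and g00880 (XLOC_011938) and the antisense locus XLOC_011335 at 1 unit.

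Other values stood apart in single members. In treated replicate 5 of 8 WAA, XLOC_011958 and g01070 (XLOC_011950) were listed at 1 unit and the antisense locus XLOC_011330 at 2. In treated replicate 1 of 7 WAA g00780 (XLOC_011327) stood at 2 units, and in treated replicate 4 of 8 WAA g00910 stood at 2. In control replicate 3 of 8 WAA g01150 (XLOC_011956) was listed at 0, and in control replicate 1 of that week XLOC_011336 was listed at 0. In replicate 3 of 8 WAA g01100 (XLOC_011951) stood at 2 units in both arms.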

How the results depend on the processing

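Pseudocounts of 0.1 and 0.5, filters at 1 and 6 libraries and rounding to whole units left the count of members past the threshold at 0 in all 12 comparisons. For controls at 8 against 6 WAA the count was 1 on the deposited scale, 1 with scaling to the median library total and 1 with all 26 libraries, each time g01130. Without 1 library at a time it ran from 0 to 2 for controls at 8 against 7 WAA and from 0 to 1 at 8 against 6 WAA, and it was 0 in the other 10 comparisons. Without the replicate block for plants, the count was 0 in all 6 comparisons of 1-MCP, with a lowest adjusted p of 0.429 at 6 WAA, 0.450 at 7 WAA and 0.981 at 8 WAA, and with replicate numbers as a block across weeks it was 0 in all 6 comparisons of development. Over all loci the count of calls for 1-MCP ran from 4 to 141 at 6 WAA and from 0 to 4 at 7 WAA, against 8 and 1.

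Restricted to antisense loci, a choice made after seeing the data, the array total differed by 4.31 units for 1-MCP at 7 WAA, by 3.55 for controls at 8 against 7 WAA, by 2.75 at 8 against 6 WAA and by 2.46 for 1-MCP clusters at 8 against 6 WAA, over 7 loci. For controls at 7 against 6 WAA it differed by -0.80 units, against 1 for all members. Small differences changed sign: the array total of 1-MCP clusters at 8 against 7 WAA went from -1 to 0.27 with scaling to the median library total, and detected members after 1-MCP at 8 WAA from -0.40 to 2 with detection at 1.5 units. Without 1 library at a time, the array total differed between arms by -1.75 to 5.75 units at 8 WAA and between controls of 7 and 6 WAA by -4 to 4, against 2 and 1 unit with all libraries, and that of 1-MCP clusters differed by 8.50 to 19.7 units between 7 and 6 WAA, by -8.00 to 1.75 between 8 and 7 WAA and by 7.50 to 15 between 8 and 6 WAA. Detected members differed after 1-MCP by 0 to 8.50 at 6 WAA, 9.75 to 16 at 7 WAA and -2.75 to 2.5 at 8 WAA. The main limit is that values move in steps of 1 unit between 0 and 4, with reads unknown, so gradual changes of a copy are not resolved.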
